A study of Mus musculus with 24 samples.

Results

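The transcripts of 10 genes of mitochondrial protein import were followed through RNA-seq libraries of mouse macrophages labelled wild type or Olfml3 knockout. The genes were Aifm1, its partner Chchd4, the outer membrane translocase genes Tomm20, Tomm22 and Tomm40, the inner membrane translocase genes Timm23, Timm50 and Timm44, and the matrix chaperone genes Hspd1 and Hspa9. They were chosen by name, as the rows with these symbols in both deposited tables, and all 10 of 10 were found among 56691 genes.

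Libraries came from 2 cell types, with 4 groups of 3 libraries in each and 24 in all. RAW264.7 is a mouse macrophage-like line, and its Olfml3 knockout cells were made with CRISPR-Cas9 from a lentivirus and grown from a single sorted cell, so that they stand for a clone. Bone marrow-derived macrophages (BMDMs) were grown for 6 days with supernatant of L929 cells from the marrow of 8-week-old male mice, either wild type or Olfml3-/-. In each cell type, wild-type and knockout cells received PBS or lipopolysaccharide (LPS, a bacterial cell wall molecule that activates macrophages) at 100 ng/mL for 4 h. Groups were taken from the sample titles, because the genotype tag of 12 of the 24 libraries says the opposite. The labels do not say which libraries came from separate mice or cultures, so the p-values measure only the spread between these libraries.

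Most mitochondrial proteins are made in the cytosol and enter the organelle through a pore in the outer membrane that TOMM40 forms, where TOMM20 and TOMM22 act as receptors. Proteins bound for the matrix then pass the inner membrane channel of TIMM23, with TIMM50 as receptor and TIMM44 tethering the chaperone HSPA9, which pulls them in, and HSPD1 helps to fold them. Small cysteine-rich proteins of the intermembrane space are instead trapped and oxidised by CHCHD4, which is held by AIFM1, a flavoprotein of that space that is also known for its role in cell death. AIFM1 was followed in the study alongside OLFML3 and IRG1, the mitochondrial itaconate-producing enzyme that the gene Acod1 encodes, and the RNA-seq libraries hold no Aifm1 knockout.

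Promoter sequence was available from RefSeq (GRCm38.p6) for 9 of the 10 genes, in 10 windows, and the 250 bases before each start were searched on both strands for 6 motifs. Stretches are shown for Aifm1 and for 4 genes whose levels moved with LPS or genotype, so that their promoters can be read beside the values. A match is a stretch of letters and not a measured binding site. In the lines that follow, each 30-base stretch is read 5′ to 3′ in the direction of its gene, and capitals mark the motif.
Aifm1, CCAAT box (CCAAT), minus strand, chrX:48513564-48513593: cctcgctgtgggaCCAATtgcagtgcggtg
Hspd1, heat shock element (GAA, TTC and GAA, each 2 bases apart), minus strand, chr1:55088050-55088079: gccttccgGAAGGTTCTAGAAcggaccgtg
Tomm22, ETS motif (CCGGAAG), plus strand, chr15:79670813-79670842: ccggctcgcttCCGGAAGacgctctgtcca
Timm23, ETS motif on the opposite strand, minus strand gene, chr14:32201920-32201949: cgcgcttcccaCTTCCGGgccgcacacagc
Tomm20, E-box (CACGTG), minus strand, chr8:126946030-126946059: gcacgccacaaaCACGTGctgcccctgacc

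Hspd1 has 2 windows. Its heat shock element and ETS motif lie before the downstream of its 2 starts, inside the gene as GENCODE M21 places it, and its E-box lies before the upstream start. The heat shock element was found in Hspd1 alone of the 9 genes, and 0.466% of all 32851 promoter windows hold one. It matched there on both strands, and these matches overlapped each other and an ETS motif. An ETS motif was present in Hspd1, Tomm22 and Timm23 (6.91% of all windows), an E-box in Hspd1 and Tomm20 (6.02%), and a CCAAT box in Aifm1, Tomm40, Timm50 and Timm44 (33.8%). Tomm40 held 5 CCAAT boxes within its 250 bases. Neither an NF-kappaB motif (GGG and TTTCC, 2 bases apart, 1.41% of windows) nor an interferon-stimulated response element (GAAA and GAAA, 2 bases apart, 2.98%) was found in any of the 9 genes, and none of the 6 motifs lay in the Chchd4 window.

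Levels are given as normalised FPKM, the fragments counted relative to exonic length and library size, after scaling by TMM, which sets the bulk of genes equal between the libraries of a cell type. Differences were tested on the counts with edgeR over all 12 libraries of a cell type, and called at a Benjamini-Hochberg adjusted p under 0.05 over all 13639 genes tested in RAW264.7 or 14057 in BMDMs. All 10 members passed the filter on low counts in both cell types. A RAW264.7 library held between 11638273 and 16478616 counts and a BMDM library between 17121240 and 22873094, and no member had fewer than 211 counts in any library. Exonic lengths of the members lay between 1651 bases (Tomm22) and 5192 bases (Chchd4), with Aifm1 (ENSMUSG00000036932, chromosome X, minus strand) at 4006. In bulk RNA, fewer cells of a type and less RNA per cell cannot be told apart.

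Some libraries have to be named before the results. Olfml3 itself was nearly absent from knockout BMDMs (mean 0.0119 and 0.00306 with PBS and LPS, against 0.472 and 0.335 in wild type). In RAW264.7 it went against the label, at 0.867 and 20.1 in the libraries labelled knockout against 0.154 and 0.201 in wild type, so that they are called "labelled knockout" throughout. Of 7 macrophage markers, Mertk had 0 counts in all RAW264.7 libraries, and the summed level of the 7 was 3110 to 3179 in wild type and 1020 to 1275 in labelled knockout with PBS, and 4196 to 4370 and 1297 to 1364 with LPS. In BMDMs all 7 were present (11680 to 16710 in sum). T cell, NK cell and erythroid markers summed to at most 0.213 in any library, fibroblast markers to 1.09 and B cell markers to 1.33, and neutrophil markers to between 3.50 and 10.7 in BMDMs with 2 of 4 above a mean of 1. Acod1 went from group means of at most 2.58 with PBS to between 2288 and 2557 with LPS in all 4 comparisons.

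The RAW264.7 libraries also differed in the length of the genes behind their counts. A counted fragment lay on average in a gene of 4879 to 4951 exonic bases in the wild-type libraries, and of 5906 to 6112 in 5 of the 6 labelled knockout libraries. The exception was replicate 1 of labelled knockout with PBS, at 5004. Genes of up to 2731 bases, 4547 in number, had a median log2 difference of -0.24 between labelled knockout and wild type with PBS and -0.34 with LPS, and the 4546 genes of 5315 bases or more had 0.29 and 0.32. Tomm22, Timm23, Hspd1 and Timm50 belong to the short genes and the other 6 members lie between these classes. RAW264.7 genotype results are therefore given also from a fit with a length correction per library and, where they use PBS libraries, without replicate 1 of labelled knockout. In BMDMs this mean length was 5627 to 5691 bases in PBS libraries and 5231 to 5496 in LPS libraries. Genes of up to 2862 bases there had a median log2 change with LPS of 0.09 in wild type and 0.05 in knockout. Genes of 5451 bases or more had -0.17 and -0.11. The part of length in any of these differences was not tested further.

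**Figure D1:**
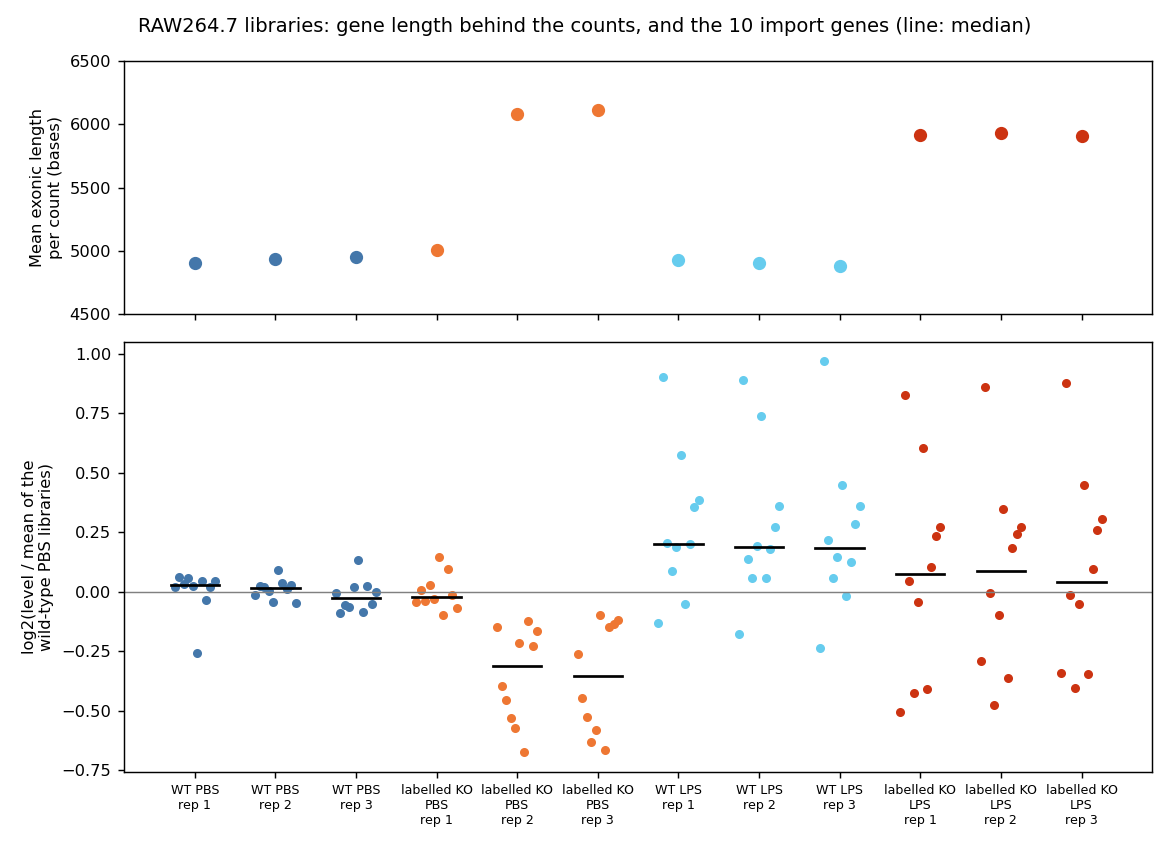
The upper panel gives the mean exonic length per counted fragment in bases for each of the 12 RAW264.7 libraries (the axis does not start at 0), and the lower panel the log2 ratio of each of the 10 import genes to its mean in the 3 wild-type PBS libraries, with the median as a line. Replicate 1 of labelled knockout with PBS has a median ratio of -0.021, and replicates 2 and 3 have -0.312 and -0.355.

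Aifm1 was lower after LPS in BMDMs of both genotypes, and no genotype difference in its level passed the test in either cell type with all libraries. In wild-type BMDMs it was 7.15, 6.84 and 7.26 normalised FPKM with PBS and 3.71, 3.73 and 3.87 with LPS. In knockout BMDMs it was 6.33, 6.33 and 7.15 with PBS and 3.91, 3.74 and 3.98 with LPS. Every library with LPS lay below every library with PBS, whatever its genotype. The fall was 0.91 ± 0.071 (SE) on the log2 scale in wild type (edgeR, adjusted p = 1.14e-14) and 0.77 ± 0.071 in knockout (adjusted p = 1.82e-12). It kept its direction and its call without TMM, where the log2 changes were -1.68 and -1.44, and with each library left out. Between genotypes the log2 difference was -0.11 ± 0.060 for PBS (edgeR, adjusted p = 0.262) and 0.04 ± 0.083 for LPS (adjusted p = 0.777), and the libraries of the 2 genotypes overlapped under both treatments.

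In RAW264.7 cells Aifm1 stood several times higher than in BMDMs, and moved less. Wild-type libraries gave 31.2, 30.5 and 30.7 with PBS and 28.1, 27.3 and 26.1 with LPS. The libraries labelled knockout gave 29.9, 27.8 and 25.7 with PBS and 21.7, 25.1 and 24.3 with LPS. From high to low the group means were 30.8 ± 0.340 (SD, n = 3) in wild type with PBS, 27.8 ± 2.14 in labelled knockout with PBS, 27.2 ± 0.990 in wild type with LPS and 23.7 ± 1.78 in labelled knockout with LPS. Only the middle pair overlapped among neighbours in this order. The drop with LPS passed the test in labelled knockout (log2 -0.23 ± 0.078, edgeR, adjusted p = 0.0256) and missed it in wild type (-0.18 ± 0.078, adjusted p = 0.0735). With library totals the wild-type drop was -0.41 and was called (adjusted p = 7.35e-04), as it was by limma (-0.40 and -0.39) and from the 2 groups alone (-0.17, adjusted p = 2.27e-04). Without replicate 1 of labelled knockout with LPS the drop in labelled knockout became -0.17 (adjusted p = 0.130), and with the length correction it was -0.13 (adjusted p = 0.117). It was also not called from the 2 groups alone (-0.22, edgeR, adjusted p = 0.143) or without the filter on low counts (-0.25, adjusted p = 0.0780). Labelled knockout against wild type gave -0.15 under PBS (adjusted p = 0.140) and -0.19 under LPS (adjusted p = 0.0525). Without replicate 1 of labelled knockout with PBS, the PBS difference was -0.21 and was called (adjusted p = 7.47e-05), while with the length correction neither difference was called (adjusted p = 0.128 and 0.0558). The LPS difference was called from the 2 groups alone (-0.18, adjusted p = 4.60e-04) and without replicate 2 of labelled knockout with LPS (-0.24, adjusted p = 0.0488).

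Chchd4, which carries out the oxidative trapping that AIFM1 takes part in, rose with LPS in RAW264.7 cells. Its levels in wild type were 20.6, 20.0 and 18.5 with PBS and 36.8, 36.5 and 38.5 with LPS. In labelled knockout they were 19.8, 14.99 and 14.5 with PBS and 34.9, 35.8 and 36.2 with LPS. The LPS libraries lay above the PBS libraries without overlap in both. The rise was 0.92 ± 0.105 on the log2 scale in wild type (edgeR, adjusted p = 1.16e-05) and 1.119 ± 0.105 in labelled knockout (adjusted p = 1.60e-06), and it was called on every scale and with each library left out. Between genotypes Chchd4 was not called in RAW264.7 (-0.26 for PBS, adjusted p = 0.0578, and -0.06 for LPS, adjusted p = 0.620). With PBS, replicate 1 lay within the wild-type range and the other labelled knockout libraries below it, and the difference was called without that library (-0.43, adjusted p = 9.05e-15) and with the length correction (-0.35, adjusted p = 0.0272). The LPS difference was -0.17 with that correction (adjusted p = 0.231).

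In BMDMs Chchd4 was the lowest of the 10 genes. It gave 3.26, 3.26 and 3.28 in wild type with PBS and 3.24, 2.50 and 3.13 with LPS. In knockout it gave 3.41, 3.63 and 3.30 with PBS and 3.28, 3.62 and 3.65 with LPS. No change with LPS passed the test (-0.14, edgeR, adjusted p = 0.114 in wild type and 0.02, adjusted p = 0.786 in knockout), while without TMM both were called falls (-0.91, adjusted p = 7.42e-13, and -0.65, adjusted p = 2.28e-09, the second of opposite sign). The wild-type change was also called without the filter on low counts (-0.20, adjusted p = 0.0314) and without replicate 1 of wild type with LPS (-0.19, adjusted p = 0.0450), and the knockout change was a called rise with the length correction (0.21, adjusted p = 0.0147). With LPS the knockout libraries lay above wild type by 0.25 ± 0.088 (adjusted p = 0.0267). That call rested on replicate 2 of wild type with LPS, the lowest library, without which the difference was 0.14 (adjusted p = 0.249). It was also lost without replicate 2 or replicate 3 of knockout with LPS (adjusted p = 0.0984 and 0.0771) and with the length correction (0.19, adjusted p = 0.0808).

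**Figure D2:**
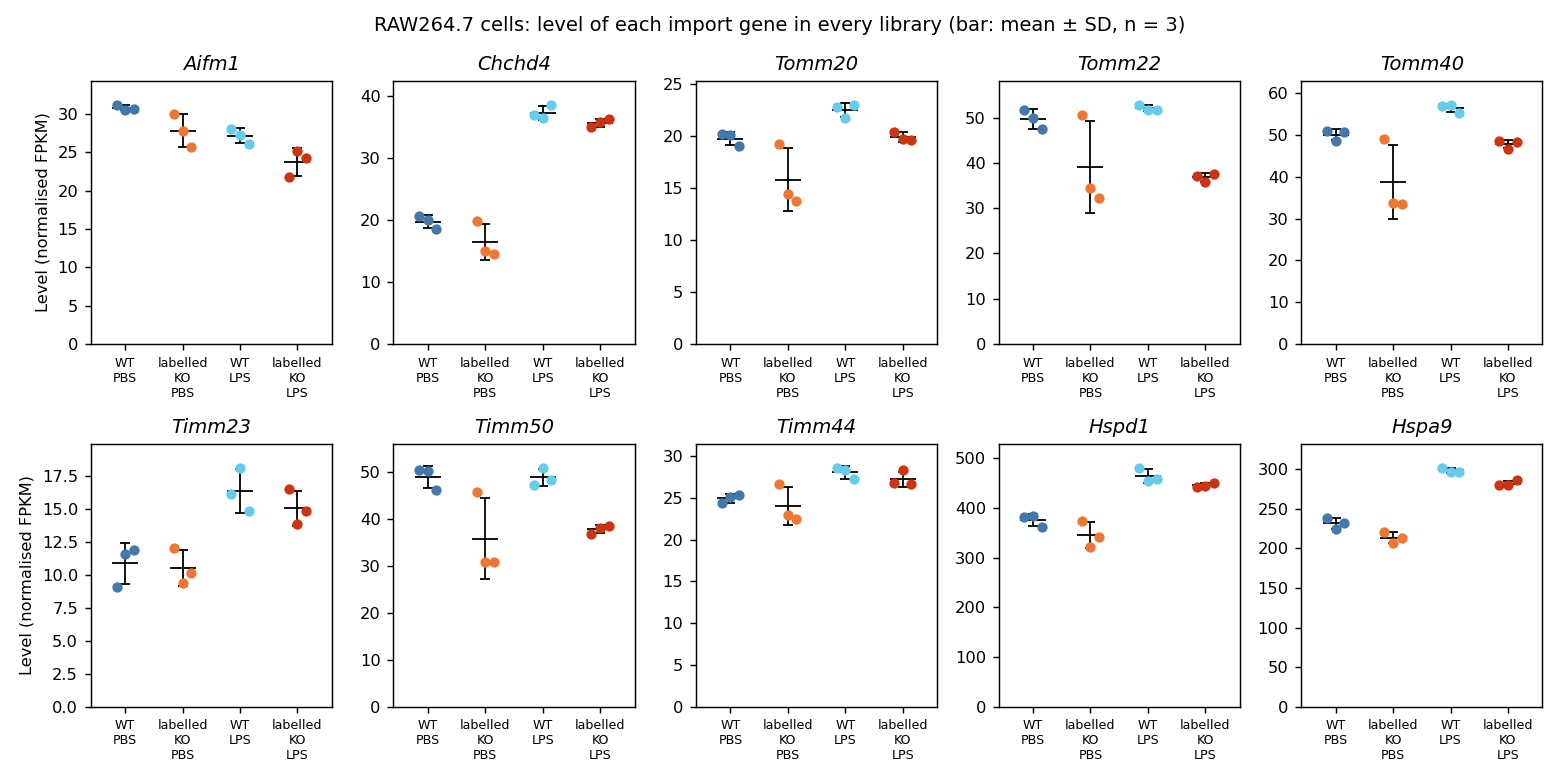
Each panel gives 1 gene in RAW264.7 cells, with the level in normalised FPKM on the vertical axis from 0, the 4 groups on the horizontal axis, a point per library and a bar at the mean ± SD of 3 libraries. Chchd4 and Timm23 are higher with LPS in both genotypes, and replicate 1 of labelled knockout with PBS lies above replicates 2 and 3 in all 10 panels.

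The outer membrane genes split. Tomm22, the central receptor of the outer membrane complex, was higher after LPS in BMDMs relative to the bulk of genes. Its levels in wild type were 31.3, 33.2 and 34.7 with PBS and 49.5, 44.1 and 48.6 with LPS. In knockout they were 32.5, 33.2 and 31.1 with PBS and 45.9, 48.2 and 48.7 with LPS. No LPS library overlapped a PBS library. The log2 change was 0.52 ± 0.050 in wild type (edgeR, adjusted p = 3.89e-12) and 0.56 ± 0.050 in knockout (adjusted p = 7.01e-13), and it turned to -0.25 and -0.11 when libraries were scaled by their totals alone. That scaling moved the median of all genes by -0.77 in wild-type and -0.67 in knockout BMDMs, so that a rise here is one relative to the other genes.

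In RAW264.7 Tomm22 did not change with LPS by the test (adjusted p = 0.719 in wild type and 0.613 in labelled knockout, edgeR), and differed between genotypes with LPS. Wild-type libraries with LPS gave 52.8, 51.7 and 51.6 and labelled knockout 37.1, 35.7 and 37.6, without overlap. That is a log2 difference of -0.50 ± 0.137 (edgeR, adjusted p = 0.00898), which shrank to -0.21 with the length correction (adjusted p = 0.0389). With PBS the wild-type libraries gave 51.8, 49.8 and 47.5, and the labelled knockout libraries 50.6, 34.4 and 32.1. Replicate 1 lay among the wild-type values, and without it the difference was -0.58 (adjusted p = 4.27e-17) in place of -0.35 (adjusted p = 0.0548). With the length correction it was -0.15 (adjusted p = 0.127).

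Tomm40, the pore, was 51.0, 48.6 and 50.7 in wild-type RAW264.7 with PBS and 49.0, 33.7 and 33.5 in labelled knockout. With LPS it was 57.0, 57.3 and 55.4 in wild type and 48.6, 46.8 and 48.4 in labelled knockout. Again replicate 1 with PBS stood with the wild-type libraries. The PBS difference was -0.37 ± 0.120 (edgeR, adjusted p = 0.0280), a call lost without any 1 of the other 5 PBS libraries (adjusted p from 0.0570 to 0.0991), and the LPS difference -0.24 ± 0.120 (adjusted p = 0.111). Without replicate 1 of labelled knockout the PBS difference was -0.58 (adjusted p = 7.17e-31), and with the length correction the differences were -0.40 (adjusted p = 0.0152) and -0.27 (adjusted p = 0.0667). With LPS Tomm40 rose by 0.31 in labelled knockout (edgeR, adjusted p = 0.0480), where the groups overlapped, and this call was lost without any of 5 of the 6 libraries (adjusted p from 0.0854 to 0.153) and with library totals (0.07). In BMDMs Tomm40 stood at 5.92, 6.43 and 6.27 in wild type and 6.84, 6.49 and 6.88 in knockout with PBS, and 5.68, 5.65 and 5.80 in wild type and 7.52, 6.83 and 6.62 in knockout with LPS. The knockout libraries lay above wild type under both treatments without overlap, and the difference passed the test with LPS (0.29 ± 0.066, edgeR, adjusted p = 3.93e-04) and not with PBS (0.12 ± 0.057, adjusted p = 0.181). The test of the difference between these 2 effects gave 0.18 (adjusted p = 0.165), and 0.28 with library totals (adjusted p = 0.0147).

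Tomm20, a receptor for presequences, had group means from 16.2 to 18.2 in BMDMs after TMM scaling, highest in knockout with PBS, where the 3 libraries (18.1, 18.7 and 17.9) lay above those of wild type (16.5, 16.2 and 16.03) by 0.17 ± 0.042 (edgeR, adjusted p = 0.00308). In wild type its change with LPS was -0.01 (edgeR, adjusted p = 0.917), but -0.78 with library totals (adjusted p = 5.52e-19) and 0.21 with the length correction (adjusted p = 1.68e-05), both called. With LPS it fell in knockout by 0.12 (adjusted p = 0.0124), a change that the length correction turned to 0.06 (adjusted p = 0.212), that was -0.79 with library totals and that was not called without replicate 2 of knockout with PBS or replicate 3 of knockout with LPS (adjusted p = 0.0566 and 0.130). In RAW264.7 its labelled knockout libraries with PBS gave 19.3, 14.4 and 13.7 against 20.2, 20.1 and 19.0 in wild type, a log2 difference of -0.32 ± 0.108 (edgeR, adjusted p = 0.0314), which was lost without any 1 of the 5 PBS libraries other than replicate 1 of labelled knockout (adjusted p from 0.0551 to 0.111). Without that replicate it was -0.49 (adjusted p = 4.95e-16) and with the length correction -0.38 (adjusted p = 0.0161). The difference with LPS was -0.18 (adjusted p = 0.182), and -0.25 with the length correction (adjusted p = 0.0769). With LPS Tomm20 rose in labelled knockout to 20.4, 19.7 and 19.6 (0.33 ± 0.108, edgeR, adjusted p = 0.0206), a call lost without replicate 2 or 3 of labelled knockout with PBS or replicate 1 with LPS (adjusted p from 0.0642 to 0.0687) and with library totals (0.10).

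**Figure D3:**
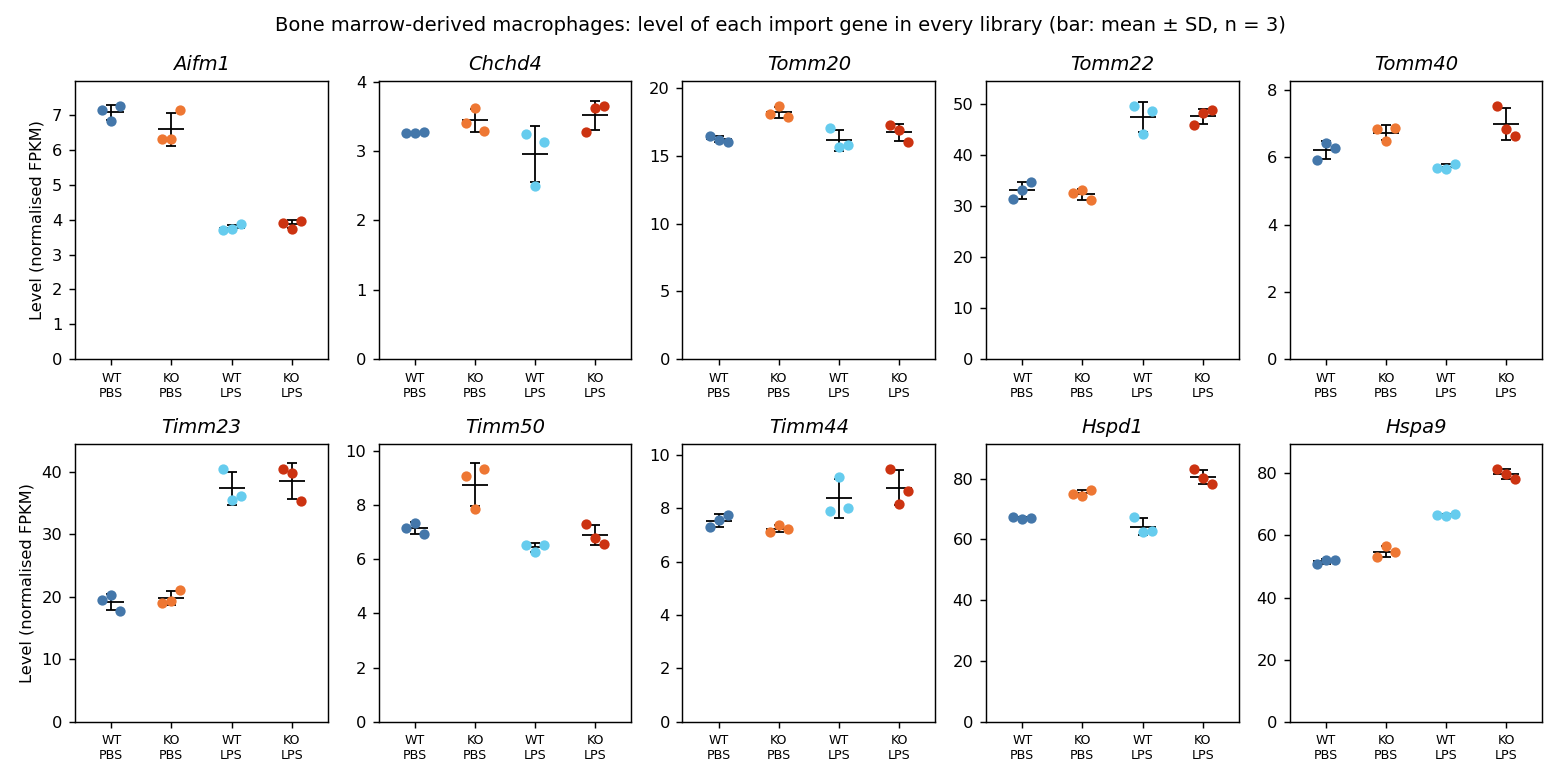
Each panel gives 1 gene in BMDMs, with the level in normalised FPKM on the vertical axis from 0, the 4 groups on the horizontal axis, a point per library and a bar at the mean ± SD of 3 libraries. Aifm1 is lower and Timm23 and Tomm22 are higher in all 6 LPS libraries than in all 6 PBS libraries, and Hspd1 and Hspa9 are highest in the 3 knockout libraries with LPS.

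Timm23, the channel of the inner membrane, rose with LPS in all 4 comparisons. In wild-type BMDMs it went from 19.5, 20.3 and 17.8 to 40.4, 35.6 and 36.1. In knockout BMDMs it went from 18.9, 19.4 and 21.1 to 40.5, 39.9 and 35.3. All 6 LPS libraries lay above all 6 PBS libraries there. The changes were 0.96 ± 0.060 (edgeR, adjusted p = 1.99e-16) and 0.97 ± 0.060 (adjusted p = 1.49e-16). Scaled by library totals they were smaller and of the same sign, 0.19 (adjusted p = 0.00445) and 0.30 (adjusted p = 2.80e-05), and on the deposited FPKM with limma the wild-type change was not called (0.19, adjusted p = 0.0866).

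In RAW264.7 Timm23 was at 9.10, 11.6 and 11.9 in wild type with PBS and at 16.2, 18.1 and 14.8 with LPS. Labelled knockout gave 12.03, 9.36 and 10.2 with PBS and 16.5, 13.8 and 14.8 with LPS. Treatments did not overlap and genotypes did. The changes with LPS were 0.59 ± 0.133 in wild type (edgeR, adjusted p = 0.00270) and 0.52 ± 0.134 in labelled knockout (adjusted p = 0.00572), and the second was not called with library totals (0.28, adjusted p = 0.0940). On the deposited FPKM with limma neither was called (0.37 and 0.28, adjusted p = 0.0933 and 0.189). No genotype difference of Timm23 passed the test in either cell type (adjusted p from 0.449 to 0.795, edgeR). In RAW264.7 the difference with PBS was -0.05, -0.16 without replicate 1 of labelled knockout and 0.15 with the length correction, and with LPS it was -0.12 and, with that correction, 0.16, none of them called. In BMDMs with LPS it was 0.05, and 0.19 with library totals, which was called (adjusted p = 0.00756).

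Timm50, the receptor that hands proteins to the TIMM23 channel, went in opposite directions between genotypes in the 2 cell types. In RAW264.7 with PBS it was 50.6, 50.3 and 46.3 in wild type and 45.8, 30.8 and 30.9 in labelled knockout, and with LPS 47.3, 51.0 and 48.4 against 36.9, 38.2 and 38.6. The wild-type libraries lay above in both, narrowly for replicate 1 with PBS. The log2 difference was -0.45 ± 0.128 with PBS (edgeR, adjusted p = 0.0159) and -0.37 ± 0.129 with LPS (adjusted p = 0.0298). With the length correction these became -0.33 (adjusted p = 0.00988) and -0.18 (adjusted p = 0.103), and the LPS call was lost when any 1 of the 6 LPS libraries was left out (adjusted p from 0.0513 to 0.0846). The PBS call was lost without replicate 1 or 2 of wild type or replicate 2 or 3 of labelled knockout (adjusted p from 0.0508 to 0.0618), and without replicate 1 of labelled knockout the difference was -0.68 (adjusted p = 7.82e-28). In BMDMs Timm50 was 7.17, 7.34 and 6.91 in wild type and 9.07, 7.86 and 9.33 in knockout with PBS, higher by 0.29 ± 0.067 (adjusted p = 0.00149). Under LPS the BMDM difference was 0.10 (adjusted p = 0.380), and 0.24 with library totals, where it was called (adjusted p = 0.0147). From PBS to LPS Timm50 fell by 0.34 in knockout BMDMs (edgeR, adjusted p = 8.20e-05), and with the length correction the change was -0.15 (adjusted p = 0.0653). In wild type the change was also -0.15 (adjusted p = 0.0696), and the interaction was not called (adjusted p = 0.244). With library totals both were called falls (-0.92 in wild type, adjusted p = 4.90e-14, and -1.01 in knockout). Whether RAW264.7 and BMDMs differ was not tested, since the tables were scaled separately.

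Timm44, which tethers the chaperone motor to the channel, had genotype differences between -0.06 and 0.07 in the 4 comparisons, none of them called by edgeR with all libraries and TMM (adjusted p from 0.481 to 0.656). In RAW264.7 with PBS it was lower in labelled knockout without replicate 1 (-0.14, adjusted p = 0.0123), and -0.01 with the length correction, which gave 0.02 with LPS. In BMDMs with LPS it was higher in knockout with library totals (0.21, adjusted p = 0.00977). RAW264.7 libraries held 22.5 to 28.6 and BMDM libraries 7.10 to 9.47. LPS raised it in BMDMs, by 0.15 ± 0.064 in wild type (edgeR, adjusted p = 0.0328) and 0.28 ± 0.064 in knockout (adjusted p = 1.86e-04), relative to the bulk of genes. With library totals these changes had the opposite sign (-0.62 and -0.39). The wild-type call was lost without replicate 1 or 2 of wild type with PBS or replicate 2 of wild type with LPS, the last giving 0.09 (adjusted p from 0.0626 to 0.251). That call was also lost without the filter on low counts (0.09, edgeR, adjusted p = 0.287). In RAW264.7 the change with LPS was 0.17 in wild type and 0.18 in labelled knockout, neither called (edgeR, adjusted p = 0.0846 and 0.0599). Both were called by DESeq2 (0.19 and 0.22, adjusted p = 0.0384 and 0.0147) and with the length correction (0.26 and 0.29, edgeR, adjusted p = 0.00239 and 8.43e-04).

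Hspa9, the mitochondrial Hsp70 that pulls proteins into the matrix, was higher after LPS in all 4 comparisons relative to the bulk of genes. In wild-type BMDMs it went from 50.8, 52.1 and 52.0 to 66.6, 66.3 and 67.0. In knockout BMDMs it went from 53.2, 56.5 and 54.7 to 81.4, 79.9 and 78.1. The 4 groups did not overlap at all. The log2 change with LPS was 0.37 ± 0.034 in wild type (edgeR, adjusted p = 1.34e-12) and 0.54 ± 0.033 in knockout (adjusted p = 1.21e-17), and scaled by library totals it was -0.41 and -0.13. The genotype difference with LPS does not rest on that scaling: knockout exceeded wild type by 0.26 ± 0.034 (adjusted p = 4.38e-08), and by 0.40 with library totals. With PBS the difference was 0.08 ± 0.033 (adjusted p = 0.0784). It was called with library totals (0.13, edgeR, adjusted p = 0.00435) and from the 2 groups alone (0.09, adjusted p = 0.00129). By limma with a pseudocount of 1 it was called too (0.12, adjusted p = 0.00846).

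In RAW264.7 cells Hspa9 was 239, 224 and 232 in wild type with PBS and 302, 297 and 297 with LPS. Labelled knockout gave 221, 207 and 214 with PBS and 279.6, 279.5 and 286 with LPS. Treatments stood clear of each other. The change was 0.37 ± 0.061 in wild type (edgeR, adjusted p = 2.71e-04) and 0.40 ± 0.061 in labelled knockout (adjusted p = 1.12e-04). With library totals it was 0.14 (adjusted p = 0.0616) and 0.16 (adjusted p = 0.0325). Labelled knockout libraries lay below wild type under both treatments, by 0.12 and 0.08 on the log2 scale, and neither difference passed the test (edgeR, adjusted p = 0.137 and 0.261), nor with the length correction (-0.13 and -0.09, adjusted p = 0.0639 and 0.170). The PBS difference was called without replicate 1 of labelled knockout (-0.15, adjusted p = 1.37e-06) and by DESeq2 (-0.12, adjusted p = 0.0256), and the LPS difference from the 2 groups alone (-0.07, adjusted p = 0.00237).

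Hspd1, the Hsp60 that folds imported proteins, was the most abundant member in RAW264.7. In BMDMs it was 67.3, 66.7 and 67.1 in wild type and 75.0, 74.4 and 76.3 in knockout with PBS. With LPS it was 67.4, 62.6 and 62.8 in wild type and 83.2, 80.2 and 78.3 in knockout. Knockout libraries were above wild type throughout, by 0.17 ± 0.036 with PBS (edgeR, adjusted p = 5.53e-04) and 0.33 ± 0.037 with LPS (adjusted p = 2.41e-09). Both calls held on every scale and with each library left out. Hspd1 and Hspa9 were the 2 members for which the effect of LPS differed between the genotypes in BMDMs, against 19.3% of all genes (10.2% higher and 9.11% lower, and 5.7% with a 1.5-fold size, which neither had). The interaction was 0.16 ± 0.051 for Hspd1 (edgeR, adjusted p = 0.0220) and 0.18 ± 0.047 for Hspa9 (adjusted p = 0.00588). The call for Hspd1 was lost with any of 6 libraries left out (adjusted p from 0.0524 to 0.0906), among them replicate 1 of knockout with LPS, without which it was 0.14. Within knockout BMDMs Hspd1 was higher with LPS by 0.10 (adjusted p = 0.0126), which turned to -0.57 with library totals.

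In RAW264.7 Hspd1 was 382, 384 and 363 in wild type with PBS and 481, 454 and 458 with LPS. Labelled knockout gave 373, 321 and 342 with PBS and 443, 445 and 450.2 with LPS. LPS libraries were higher in both genotypes, by 0.30 ± 0.070 (edgeR, adjusted p = 0.00304) and 0.37 ± 0.070 (adjusted p = 6.60e-04), though with library totals the changes were 0.08 and 0.13 and not called. The genotype difference with PBS was -0.12 (adjusted p = 0.169), with -0.19 and a call without replicate 1 of labelled knockout (adjusted p = 2.58e-09) and 0.02 with the length correction. The genotype difference with LPS was -0.06 (adjusted p = 0.497), and the length correction turned it to 0.14 (adjusted p = 0.0485). Hspd1 has 5 named pseudogenes in the tables, which together held 4.69% as many counts as Hspd1 in RAW264.7 and 1.71% in BMDMs, and Hspa9 has 1 with 0.101% or less. The sources used here do not say how reads that match both were assigned.

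**Figure D4:**
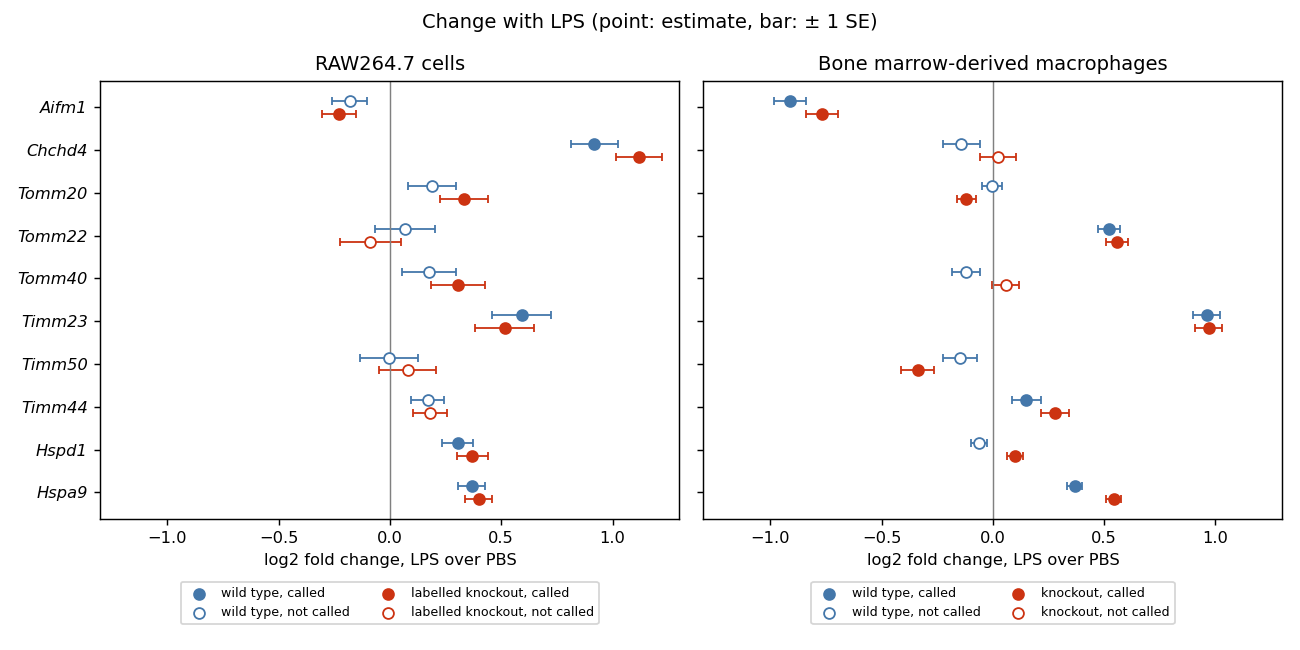
The log2 fold change of each gene with LPS over PBS is plotted on the horizontal axis with a bar of ± 1 SE, for wild type and (labelled) knockout in each cell type, filled where the adjusted p is under 0.05. Aifm1 lies furthest to the left in BMDMs (-0.91 and -0.77), Timm23 furthest to the right there (0.96 and 0.97), and Chchd4 furthest to the right in RAW264.7 (0.92 and 1.119).

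By count, LPS raised 4 of the 10 members in wild-type RAW264.7 (Chchd4, Timm23, Hspd1 and Hspa9) and lowered 0, where 23.6% of all genes tested were called higher and 24.7% lower (48.3% in all). In labelled knockout 6 rose and 1 fell, against 26.6% and 27.9% of all genes (54.5% in all). Without replicate 1 of labelled knockout with PBS all 10 were called, 9 higher and Aifm1 lower, against 66.2% of all genes. In wild-type BMDMs 4 rose and 1 fell, and in knockout BMDMs 5 rose and 3 fell, where 38.5% and 38.0% of all genes were called higher and 42.1% and 41.2% lower (80.7% and 79.3% in all). With library totals all 10 were called in each genotype of BMDMs, Timm23 higher and 9 lower, against 89.3% and 87.8% of all genes called. Of all 14057 genes, 10048 in wild type and 9794 in knockout were then lower, and 2504 and 2550 higher. PBS and LPS libraries did not overlap for 8, 6, 8 and 8 members in these comparisons, and for 67.7%, 59.2%, 80.7% and 81.0% of all genes. With the fold change of at least 1.5 that the study also asked for, Chchd4 and Timm23 remained in wild-type RAW264.7 (31.2% of all genes), Chchd4 in labelled knockout (37.9%), and Timm23 and Aifm1, in opposite directions, in BMDMs of either genotype (55.9% and 53.5%). The median log2 change of the 10 members was 0.18, 0.32, -0.03 and 0.08 in these 4 comparisons, and that of all genes tested 0.01, -0.01, -0.07 and -0.06.

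Between genotypes no member was called by edgeR with all libraries with a change of 1.5-fold in any of the 4 comparisons, where 22.8% (PBS) and 33.0% (LPS) of all RAW264.7 genes were, and 3.77% and 9.22% of all BMDM genes. Timm50 exceeded that size in RAW264.7 with PBS once replicate 1 of labelled knockout was left out (-0.68, edgeR, adjusted p = 7.82e-28). In RAW264.7 with PBS, 3 members were called, Tomm20, Tomm40 and Timm50, all lower in labelled knockout, where 20.4% of all genes were lower and 23.3% higher (43.7% in all). The groups did not overlap for 3 members and for 41.2% of all genes. Without replicate 1 of labelled knockout with PBS, 9 were lower (all but Timm23), against 68.3% of all genes called. Left out in turn, the other 5 PBS libraries each left 0 or 1 of them called, against 23.9% to 29.7% of all genes. With the length correction 4 were lower, Chchd4 added to the same 3, against 41.2% of all genes called. With LPS, Tomm22 and Timm50 were lower in labelled knockout, where 27.6% of all genes were lower and 27.0% higher (54.6% in all), and with the length correction Tomm22 was lower and Hspd1 higher, against 51.7% of all genes called. The groups did not overlap for 8 of the 10 members with LPS, and for 70.0% of all genes. In RAW264.7, 0 members had an interaction by edgeR, 0 by DESeq2 and 0 by limma, and 0 had an unadjusted p under 0.05, against 4.12% of all genes by edgeR (1.66% higher and 2.46% lower, and 3.21% with a 1.5-fold size). Without replicate 1 of labelled knockout with PBS 5 members did (3067 of all 13914 genes), of which Chchd4 had the largest at 0.35.

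In BMDMs the called genotype differences all had the knockout higher. They were Tomm20, Timm50 and Hspd1 with PBS (3 of 10, against 7.55% of all genes called higher, 8.94% lower and 16.5% at all) and Chchd4, Tomm40, Hspd1 and Hspa9 with LPS (4 of 10, against 16.7% higher, 18.1% lower and 34.8% at all). The median log2 difference of the 10 members was 0.08 with PBS and 0.08 with LPS, and that of all genes 0.00 and 0.01. With PBS 6 of the 10 had groups that did not overlap, and with LPS 5, against 35.3% and 42.0% of all genes. Scaling by library totals moved the median of all genes with LPS by 0.14 and raised the members called from 4 to 9, all higher in knockout. Of all genes 44.1% were then called, 4748 higher and 1453 lower. The largest called size was 0.33, in Hspd1.

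**Figure D5:**
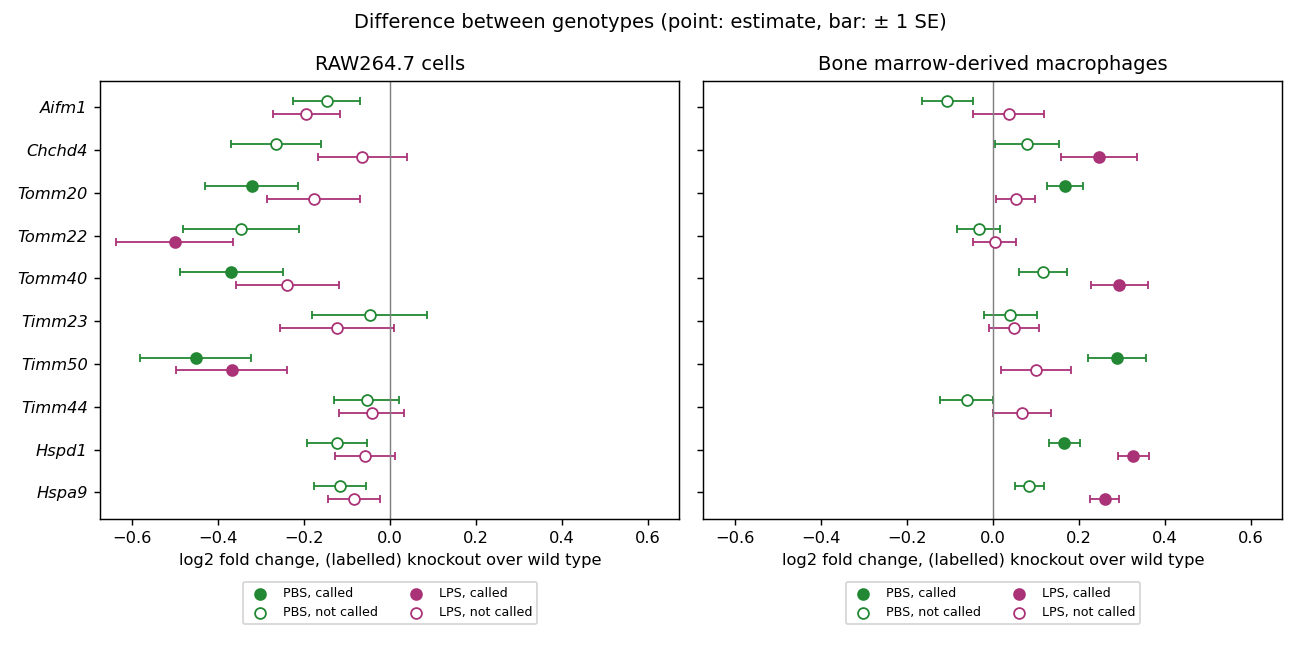
The log2 fold change of (labelled) knockout over wild type is plotted for each gene on the horizontal axis with a bar of ± 1 SE, with PBS and with LPS in each cell type, filled where the adjusted p is under 0.05. In RAW264.7 all 20 points lie at or below -0.04, and in BMDMs the called points lie between 0.17 and 0.33.

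Side by side, members were mostly more abundant in RAW264.7 than in BMDMs, by a description that no test supports, because the 2 tables were scaled separately and the cell types differ in far more than these genes. In wild type with PBS the normalised FPKM of Tomm40 was 50.1 against 6.21, of Timm50 49.0 against 7.14, of Hspd1 376 against 67.0, of Chchd4 19.7 against 3.26 and of Aifm1 30.8 against 7.09. Tomm22 (49.7 against 33.1) and Tomm20 (19.8 against 16.2) were closer, and Timm23 stood the other way (10.9 against 19.2). Hspd1 and Hspa9 were the most abundant members in RAW264.7 and in BMDMs with either treatment.

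Other genes of the import pathway and its surroundings were read as lists, 62 genes in all of which 61 passed the filter in both cell types. The lists were drawn up by function with earlier results of these data known. Those named are the largest called changes among genes with a mean of at least 1 normalised FPKM. In RAW264.7, 23 of the 61 were lower and 5 higher in labelled knockout with PBS, against 20.4% and 23.3% of all genes, and 32 lower and 6 higher with LPS, against 27.6% and 27.0%. With the length correction 26 and 33 were lower, against 3072 and 3863 of all 13639 genes. Without replicate 1 of labelled knockout with PBS 47 were lower with PBS, against 4759 of all 13914 genes. Of the genes of 11 proteins that CHCHD4 is known to oxidise, 0 were called between BMDM genotypes with PBS, against 16.5% of all genes. With LPS 1 was called there, lower in knockout, against 34.8%. In labelled knockout RAW264.7 with PBS 6 of the 11 were lower and 1 higher (20.4% and 23.3% of all genes). In labelled knockout with LPS 10 were lower than in wild type with LPS (27.6% of all genes) and 0 higher. With the length correction 9 were lower and 1 higher, Chchd10, named after its values were seen (log2 0.50, edgeR, adjusted p = 0.1001, and 0.80, adjusted p = 0.00315, with the correction). The lower genes included Ndufb7 (19.1 to 9.83, log2 -0.95, edgeR, adjusted p = 0.00147) and Ndufb10 (68.5 to 36.5, log2 -0.91, adjusted p = 0.00127), both subunits of respiratory complex I, at -0.98 and -0.60 with the length correction. In the same comparison Mtx3, a metaxin of the outer membrane, was higher (5.10 to 11.2, log2 1.13, adjusted p = 5.43e-04; 0.84 with the length correction). With PBS, Chchd10 (log2 1.09, adjusted p = 0.00306) and Mtx3 (0.76, adjusted p = 0.00900) were higher and Romo1, a small protein of the inner membrane translocase, was lower (-0.65, adjusted p = 0.0341, and -1.08 without replicate 1 of labelled knockout).

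With LPS the lists moved in both directions. In wild-type RAW264.7, 10 of the 61 rose and 5 fell, against 23.6% and 24.7% of all genes, the largest being Cox17, a copper chaperone and CHCHD4 substrate (log2 0.88, edgeR, adjusted p = 0.00270), Oxa1l, which inserts inner membrane proteins (-0.83, adjusted p = 4.11e-05), and Timm17a, a partner of TIMM23 in its channel (0.68, adjusted p = 2.85e-04). Library totals gave 6 rises and 18 falls in wild type, against 2092 and 4997 of all 13639 genes. In labelled knockout they gave 8 and 28, against 2442 and 5419. With TMM 12 rose and 13 fell in labelled knockout (26.6% and 27.9% of all genes). They included Atf5, a transcription factor of the mitochondrial stress response, at 1.06, Chchd10 at -1.01 and Mtx3 at 0.91, each of the same sign with library totals.

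In BMDMs 32 of the 61 rose and 15 fell in wild type, and 31 rose and 13 fell in knockout, relative to the bulk of genes, where 38.5% and 38.0% of all genes rose and 42.1% and 41.2% fell. Scaled by library totals 4 and 6 rose and 50 and 52 fell, where 2504 and 2550 of all 14057 genes rose and 10048 and 9794 fell. Of the rises, 25 in each genotype then had the opposite sign, while the 15 and 13 falls remained falls. Among the rises called on both scales were Cox17 (log2 1.34, edgeR, adjusted p = 3.63e-19, and 0.56 with library totals) and Pmpcb, a subunit of the presequence-cleaving peptidase (1.23, adjusted p = 3.96e-23, and 0.45), both higher in wild type with LPS. Timm9, a small chaperone of the intermembrane space, was lower there (-1.18, adjusted p = 1.44e-08, and -1.95) at a low level (1.79 to 0.792). In knockout Timm9 (-1.25), Cox17 (1.13) and the protease gene Yme1l1 (1.06) changed most among genes with a mean of at least 1 normalised FPKM.

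Between genotypes in BMDMs 4 of the 61 list genes were called with PBS, 2 higher and 2 lower, against 16.5% of all genes. With LPS 14 were called, 6 higher and 8 lower, against 34.8%. Library totals made the LPS calls 24 higher and 3 lower, against 4748 and 1453 of all 14057 genes. Ddit3, which encodes the stress factor CHOP, was lower in knockout with PBS (17.7 to 11.04, log2 -0.68, edgeR, adjusted p = 2.29e-07) and with LPS (-0.70, adjusted p = 7.31e-06). Atf4 (0.36, adjusted p = 8.52e-10) and Atf5 (0.36, adjusted p = 6.97e-05), transcription factors of the same response, were higher with PBS. Afg3l2, a matrix-facing protease of the inner membrane, was higher with LPS (6.07 to 8.73, log2 0.52, adjusted p = 6.36e-11), as was Tomm40l, a relative of Tomm40 (0.36, adjusted p = 0.0225). The interaction was called for 5 list genes, largest for Afg3l2 (0.54, adjusted p = 1.13e-07), Atf4 (-0.38, adjusted p = 1.07e-06) and Pmpcb (-0.28, adjusted p = 0.00438, and 0.0710 with library totals).

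The genes whose pattern over the 8 group means was most like that of Aifm1 were Cd300ld, Btbd1, Gzf1, Mepce and Eed, by the root mean square difference of log2 levels centred within each cell type. They differed from Aifm1 by 0.0418 to 0.0667 among 5106 genes compared, whose median was 0.485. Genes were compared only with a mean of at least 5 normalised FPKM in both cell types, which leaves out Chchd4. The nearest gene of the lists was Clpp, a matrix protease, at rank 302 (0.217), and the nearest of the 8 other members compared was Timm50 at rank 573 (0.265). This likeness is a description over 8 groups.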

How the data were processed

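Poly(A) RNA-seq of 24 libraries was analysed. For each cell type a table deposited by the authors holds gene counts and FPKM (counts relative to exonic length and library total), and FPKM recomputed from counts, exonic length and library total matched the deposited FPKM within 1% for 99.88% and 99.51% of values over 50 counts. Aligner and counter: not given in the sources used here. Processing notes of the submitters name mm10, but only 2.78% of genes start where GENCODE M21 (GRCm38) has them, so no table position is used and promoters are placed on GRCm38.

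edgeR 4.0.16 (R 4.3.3; TMM, filterByExpr, robust quasi-likelihood) was fitted to the counts per cell type with 4 group means. The study's methods name limma, with adjusted p under 0.05 and 1.5-fold. limma 3.58.1 on log2(FPKM + 0.1) and DESeq2 1.42.0 were alternatives. SE is the log2 change over the root of F. The length correction, chosen after the data were seen, offsets each library by a trend on gene length. On simulated data with 200 changed genes the edgeR step was checked first. Members and lists were chosen with earlier results of these data known. Named genes were the 10 members, at most 3 list genes per comparison with the largest called change and a mean of at least 1 normalised FPKM, and the 5 genes most like Aifm1. Sequence for Hspa9 was not used here.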

Additional observations from a re-analysis of the deposited data

Results flagged for a closer look

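In BMDMs the effect of LPS differed between knockout and wild type, by the interaction test, for Hspd1 (log2 0.16, edgeR, adjusted p = 0.0220) and Hspa9 (0.18, adjusted p = 0.00588). These are 2 of the 10 members, near the 19.3% of all genes called. The Hspd1 call was lost with some single libraries left out (edgeR, adjusted p from 0.0524 to 0.0906). Other results stood out because the 3 libraries of each group were apart in opposite directions in RAW264.7 and BMDMs, and the difference between the cell types was not tested. For knockout (labelled knockout in RAW264.7) against wild type with PBS these were Timm50 (-0.45 in RAW264.7 and 0.29 in BMDMs) and Hspa9 (-0.12 and 0.08). With LPS they were Chchd4 (-0.06 and 0.25), Tomm40 (-0.24 and 0.29), Timm50 (-0.37 and 0.10), Hspd1 (-0.06 and 0.33) and Hspa9 (-0.08 and 0.26). By edgeR with all libraries, no gene of this LPS set was called in both cell types. In RAW264.7 Hspd1 turned to 0.14 with the length correction (edgeR, adjusted p = 0.0485), the same sign as in BMDMs. The Chchd4 call in BMDMs was lost without replicate 2 of wild type with LPS (adjusted p = 0.249). For LPS against PBS they were Chchd4 (0.92 and -0.14) and Tomm40 (0.17 and -0.12) in wild type, and Tomm20 (0.33 and -0.12) in labelled knockout RAW264.7 and knockout BMDMs. How many of all genes are apart in this way was not counted. RAW264.7 values here carry the gene length difference between libraries that the report gives. Olfml3 itself was higher in labelled knockout RAW264.7 (log2 2.5 with PBS and 6.6 with LPS) and lower in knockout BMDMs (-5.2 and -6.3). The genotype comparisons of the 2 cell types therefore do not stand for the same change in Olfml3.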

How the results depend on the processing

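The members called, of 10, depend on the tool and scaling, and the cause was not tested unless named. The order below is labelled knockout or knockout against wild type with PBS, then with LPS, then LPS against PBS in wild type, then in (labelled) knockout, then the interaction. With the 1.5-fold rule, which leaves out smaller changes by construction, the counts were 0, 0, 2, 1 and 0 in RAW264.7, from 3, 2, 4, 7 and 0, and 0, 0, 2, 2 and 0 in BMDMs, from 3, 4, 5, 8 and 2. Shares of all genes for these counts are given above, and the shares below are of all genes tested in the same fit. Limma and the fit without the filter also test genes of low counts. In RAW264.7, labelled knockout against wild type with PBS gave 6 by DESeq2 (46.4% of all genes). It gave 0 by limma with either pseudocount (12.1% and 16.1%) and 0 from a fit of the 2 groups alone (14.5%). With LPS it gave 1 by limma with either pseudocount (25.2% and 26.6%) and 6 from the 2 groups alone (71.1%). LPS in wild type gave 2 by limma with a pseudocount of 0.1 (24.4%) and 8 from the 2 groups alone (69.9%). In labelled knockout LPS gave 3 with library totals (57.6%) and 4 from the 2 groups alone (45.0%). There limma gave 2 and 3 with pseudocounts of 0.1 and 1 (28.3% and 29.4%). In BMDMs, knockout against wild type gave 5 with library totals under PBS (17.5%). Under LPS it gave 9 with library totals (44.1%) and 7 by limma with a pseudocount of 1 (19.5%). LPS in wild type gave 10 with library totals (1 higher and 9 lower, as in knockout), where 89.3% of all genes were called. It gave 9 by limma with either pseudocount (50.7% and 49.6%) and 8 without the filter (45.1%). Leaving out 1 library gave 0 to 9, 1 to 2, 4 to 4, 4 to 10 and 0 to 5 in RAW264.7, and 3 to 3, 3 to 4, 4 to 7, 6 to 8 and 1 to 2 in BMDMs. Signs turned in BMDMs with LPS, with library totals and with limma at pseudocounts of 0.1 and 1, for Tomm22 (-0.25, -0.25 and -0.25), Timm44 (-0.62, -0.62 and -0.55) and Hspa9 (-0.41, -0.40 and -0.40) in wild type, and in knockout for Chchd4 (-0.65, -0.63 and -0.50), Tomm22 (-0.11, -0.11 and -0.11), Tomm40 (-0.61, -0.61 and -0.54), Timm44 (-0.39, -0.39 and -0.35), Hspd1 (-0.57, -0.57 and -0.57) and Hspa9 (-0.13, -0.13 and -0.13), where the scaling moves all genes together. With the length correction signs turned, with a call in either fit, for Tomm20 (0.21 in wild-type and 0.057 in knockout BMDMs with LPS), Hspd1 (0.13 in wild-type BMDMs with LPS) and Hspd1 between RAW264.7 genotypes with LPS (0.14), and without replicate 1 of labelled knockout with PBS for Tomm22 with LPS in labelled knockout (0.14, and -0.21 to 0.14 over the libraries left out). Signs that turned without a call, such as Timm23 between RAW264.7 genotypes with the length correction (0.15 with PBS and 0.16 with LPS), are not listed here. Of the single-gene values under alternatives other than a left-out library, 643 kept their side of the threshold, 59 gained a call and 47 lost one. A further 31 turned sign with a call in either fit. Signs that turned without a call in either fit are counted among the 643. With the replicate number as a block the counts were 4, 2, 4, 7 and 0 in RAW264.7 and 3, 4, 5, 8 and 2 in BMDMs. Of all genes 42.3%, 53.5%, 47.2%, 53.6% and 3.45% were then called in RAW264.7, and 16.1%, 34.1%, 80.3%, 78.9% and 18.8% in BMDMs. Same-numbered libraries of different groups correlated in their deviations between -0.0387 and 0.125 in RAW264.7 and between -0.0165 and 0.0292 in BMDMs, so the numbers were not taken as pairs. With 3 libraries a group, small differences are near the limit of the test, and the labels name no batch.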
